A study of Mus musculus with 8 samples.

Results

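Glucocorticoid signaling, the FoxO factors and the nutrient sensors around the kinase mTORC1 carry the state of feeding to the genes of a cell. The expression of 10 genes of these pathways was examined in adipose tissue macrophages, namely *Nr3c1*, *Fkbp5*, *Tsc22d3*, *Klf9*, *Ddit4*, *Sesn1*, *Foxo1*, *Foxo3*, *Sirt1* and *Txnip*. They were chosen by symbol from the 54146 genes of the count table, and 10 of 10 were among the 17095 genes tested. The samples were FCGR4+ and FCGR4- macrophages sorted from the epididymal white adipose tissue (eWAT) of 4 male C57Bl6 mice, 1 library of each population from each mouse, so that both populations were measured in the same 4 animals. Every mouse had eaten a high-fat diet freely for 24 weeks and was then kept for 2 weeks on 30% less food, here called short-term caloric restriction (stCR). The paper describes the diet of its obesity model as high in fat with added cholesterol. The sort kept CD45+ CD11b+ cells without CD3, B220, Ly6G or SiglecF on their surface and divided them by FCGR4, an IgG receptor that promotes phagocytosis. All 8 libraries come from mice under stCR, so no level given here is compared with that of a freely fed mouse. The paper gives an age range for the mice it used, but the ages at harvest are not given in the sources used here. Nor do these say whether the mice also received one of the study's treatments against the LDL receptor.

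In fasting, the adrenal gland releases glucocorticoids, which bind the glucocorticoid receptor in the cytoplasm, and the receptor then moves to the nucleus and turns on genes such as *Fkbp5*, *Tsc22d3* and *Klf9*. When insulin is low, FoxO factors leave the cytoplasm and activate genes of stress resistance and fuel use, and the deacetylase SIRT1, which needs NAD+, acts on them. *Ddit4* and *Sesn1* restrain mTORC1 when amino acids, energy or oxygen are short, and *Txnip* follows the supply of glucose through the factor MondoA. In macrophages, glucocorticoids are known for dampening inflammation and for raising the uptake of dying cells.

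The libraries held 35992794 to 66856746 counts each, and 3 counts amount to 0.0440 to 0.0883 normalized CPM (counts scaled to a common library size with the TMM factors of edgeR). The member with the fewest reads, *Ddit4*, still had 45 counts in its lowest library. *Fcgr4* itself, the check of the sort, averaged 199.6 ± 42.4 normalized CPM over the FCGR4+ libraries and 66.1 ± 18.3 over the FCGR4- libraries (SD, n = 4 mice each), with no overlap. The macrophage markers summed to between 22655 and 54514 CPM in every library. Markers of cells the gate should remove or that share the fat pad were also present and differed between populations: the mast cell and basophil sum was 6.84 to 24.4 CPM in FCGR4+ and 196.1 to 2080 CPM in FCGR4- libraries, the neutrophil sum 115.4 to 530.8 against 317.0 to 2319 CPM, and the fibroblast sum 150.9 to 284.7 against 382.7 to 1565 CPM. T and NK cell markers summed to at most 12.6 CPM in FCGR4+ and 65.7 CPM in FCGR4- libraries. In bulk libraries, fewer cells of a type and less RNA per cell cannot be told apart.

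The promoters of 4 members are shown, each of which holds a motif that was searched for. They are the 250 bases before the RefSeq start site, from the RefSeq table of GRCm38.p6, written 5′ to 3′ along the gene with the matched motif in capitals. *Fkbp5* encodes a co-chaperone that lowers the affinity of the glucocorticoid receptor for its hormone, and its window is chr17:28486150-28486399 on the minus strand, with a single E box (CACGTG) from base -169 to base -164. *Tsc22d3* encodes GILZ, a mediator of glucocorticoid action in leukocytes. The second of its 3 windows, chrX:140600523-140600772 on the minus strand, has a glucocorticoid core motif (AGAACA, here on the opposite strand as TGTTCT) from -185 to -180. *Txnip* encodes a protein that binds thioredoxin and limits glucose uptake. Its window, chr3:96557707-96557956 on the plus strand, has a FoxO site (GTAAACA) from -121 to -115. That of *Sirt1*, chr10:63339036-63339285 on the minus strand, has E boxes from -115 to -110 and from -43 to -38.
*Fkbp5*: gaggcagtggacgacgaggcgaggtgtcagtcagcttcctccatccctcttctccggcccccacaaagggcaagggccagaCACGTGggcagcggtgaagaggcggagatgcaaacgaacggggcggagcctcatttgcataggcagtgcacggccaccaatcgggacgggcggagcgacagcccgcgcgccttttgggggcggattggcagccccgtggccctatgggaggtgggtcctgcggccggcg
*Tsc22d3*: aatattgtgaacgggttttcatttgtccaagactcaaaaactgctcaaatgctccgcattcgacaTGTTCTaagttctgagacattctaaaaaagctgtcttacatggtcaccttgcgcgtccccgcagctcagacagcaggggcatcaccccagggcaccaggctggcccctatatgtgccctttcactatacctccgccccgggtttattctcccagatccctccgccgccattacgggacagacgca
*Txnip*: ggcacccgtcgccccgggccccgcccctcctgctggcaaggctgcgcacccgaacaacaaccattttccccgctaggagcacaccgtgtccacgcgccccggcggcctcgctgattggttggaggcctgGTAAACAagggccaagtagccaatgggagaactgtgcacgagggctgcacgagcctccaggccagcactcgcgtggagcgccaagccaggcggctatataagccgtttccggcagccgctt
*Sirt1*: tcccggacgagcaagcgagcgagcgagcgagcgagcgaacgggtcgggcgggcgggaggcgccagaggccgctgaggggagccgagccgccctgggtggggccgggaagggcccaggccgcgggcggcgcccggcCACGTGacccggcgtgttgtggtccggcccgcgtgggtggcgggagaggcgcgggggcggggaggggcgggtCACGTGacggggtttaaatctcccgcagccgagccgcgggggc
A window was found for 9 of the 10 members, 12 windows in all, and both strands were searched. The FoxO site was in 2 of the 12, those of *Txnip* and *Klf9* (from -100 to -94), and it is in 3.17% of the 32851 windows of all genes. The E box was in 2 of the 12, against 6.02% of all windows, and the core motif in 1 of the 12, against 16.1%. The full glucocorticoid response element (AGAACA, any 3 bases, then TGTTCT, which contains the core motif) was in none of the 12 and in 0.00913% of all windows. A match describes these letters only.

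Per kilobase of gene length, *Tsc22d3* and *Txnip* were the most abundant of the 10, with levels of 91.7 ± 33.4 and 79.8 ± 31.2 normalized CPM per kilobase (SD, n = 8 libraries, 2 from each mouse). *Tsc22d3* was at the 95.4th percentile of all tested genes. *Sesn1* followed at 17.9 ± 6.57, and a middle group of *Fkbp5* (8.53 ± 6.88), *Nr3c1* (8.29 ± 1.91) and *Klf9* (7.91 ± 2.66) had nearly the same mean level per kilobase. *Sirt1* (1.56 ± 0.294), *Foxo1* (1.41 ± 0.424), *Ddit4* (1.22 ± 0.623) and *Foxo3* (0.978 ± 0.278) were the lowest, below the median of all tested genes, 2.53. The steps from *Txnip* to *Sesn1*, from *Sesn1* to *Fkbp5* and from *Klf9* to *Sirt1* can be read against the spread: *Txnip* lay above *Sesn1* in 8 of 8 libraries, *Sesn1* above *Fkbp5* in 8 of 8 and *Klf9* above *Sirt1* in 8 of 8. The neighbors within the middle and the low group changed places between libraries, with *Fkbp5* above *Nr3c1* in 2 of 8, and *Tsc22d3* was above *Txnip* in 6 of 8. The *Txnip* length includes 19.4% of exon bases shared with an antisense gene, where read pairs on both genes were not counted. Its level may thus be understated, and its order against *Tsc22d3* is not settled.

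**Figure D1:**
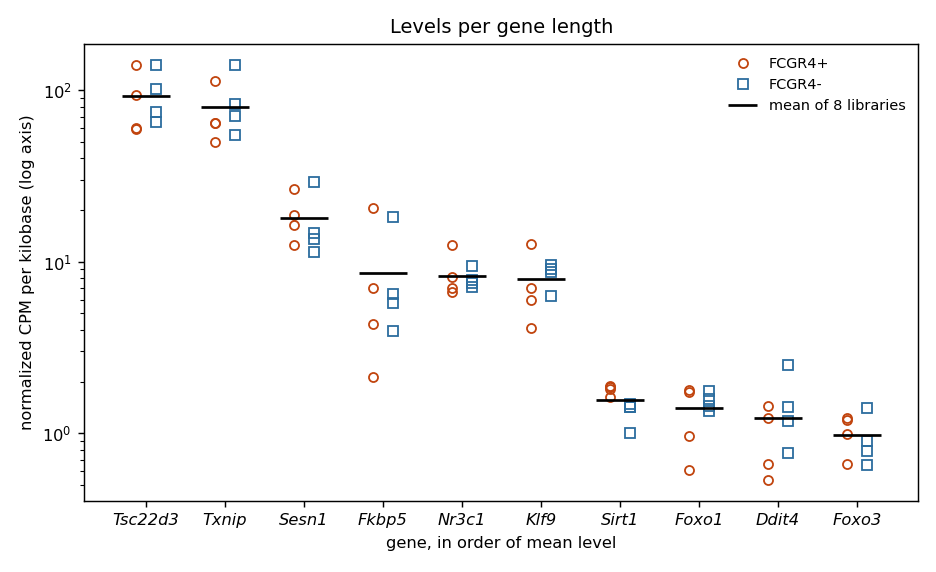
Normalized CPM per kilobase of gene length (log axis) of the 10 genes in the order of their mean over 8 libraries (black line), with 1 circle per FCGR4+ and 1 square per FCGR4- library. *Tsc22d3* and *Txnip* stand highest, at means of 91.7 and 79.8, and the circles and squares of a gene overlap except for *Sirt1*.

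The first comparison asked whether FCGR4+ macrophages differ from FCGR4- macrophages of the same mouse in these genes. None of the 10 did in a fit that paired the populations by mouse (quasi-likelihood F test of edgeR): 0 passed an adjusted P under 0.1, where 1.27% of all tested genes did, 0.0819% as higher and 1.19% as lower in FCGR4+ cells. DESeq2 also called 0 of the 10, against 5.99% of all genes, and 0 had an unadjusted P under 0.05, against 9.77% of all genes. By log2 fold change 4 were higher and 6 lower in FCGR4+ cells, with a median of -0.19 beside -0.00 over all tested genes. In simulated counts the same fit found 36% of 2-fold and 68% of 4-fold changes, set in genes drawn at random from all tested genes. Changes as small as those of the 10 genes were not simulated. These shares thus do not say how often such changes would be missed in the 10 genes.

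*Sirt1* came closest. Its level was 9.88, 8.61, 9.63 and 10.004 normalized CPM in the FCGR4+ libraries of mice 1 to 4, and 7.93, 7.53, 5.34 and 7.58 in the FCGR4- libraries. Every FCGR4+ library was thus above every FCGR4- library, as for 0.883% of all tested genes (the reverse held for 3.02%), and *Sirt1* was the only one of the 10 without overlap. The log2 fold change was 0.44 (standard error 0.192, 95% interval -0.01 to 0.89, edgeR adjusted P = 0.514), and 4 of 4 mice were higher, as for 8.38% of all tested genes. It ranged from 0.29 to 0.51 with 1 mouse left out. The lowest value came without mouse 3 (edgeR adjusted P = 0.991), whose FCGR4- library had the lowest *Sirt1* level. Of the 19 sirtuins and NAD enzymes tested, *Sirt1* included, 0 passed in either direction. *Sirt6*, a nuclear deacetylase of the same family, differed by -0.32 on the log2 scale (edgeR adjusted P = 0.652) and was lower in 4 of 4 mice. The genes whose log2 CPM followed that of *Sirt1* most closely over the 8 libraries, of 10018 with a mean of at least 5 CPM, were *Smim27* (Pearson r = 0.978), *Mtmr2* (0.976) and *Gm5547* (0.961). These libraries share mice in pairs, and no other member came near: the highest r of a member with *Sirt1* was 0.293, for *Sesn1*.

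By log2 fold change, the targets *Tsc22d3*, *Fkbp5* and *Klf9* were lower in FCGR4+ cells and the receptor gene slightly higher, and none passed the threshold. *Nr3c1*, the glucocorticoid receptor, was at 93.0, 52.3, 49.6 and 60.7 normalized CPM in FCGR4+ libraries and at 69.9, 52.8, 58.1 and 55.8 in FCGR4- libraries of mice 1 to 4. The populations overlapped, and the log2 fold change of 0.07 (95% interval -0.27 to 0.42, edgeR adjusted P = 0.873) turned to -0.016 when libraries were scaled by their size alone and to -0.041 without mouse 1. *Tsc22d3* was lower in FCGR4+ cells in 4 of 4 mice, as were 10.5% of all tested genes, but by little, with a log2 fold change of -0.14 (95% interval -0.44 to 0.16, edgeR adjusted P = 0.711). *Fkbp5* and *Klf9*, a transcription factor that glucocorticoids induce in many tissues, differed by -0.25 and -0.28 on the log2 scale (edgeR adjusted P = 0.708 and 0.730). Both were higher in FCGR4+ cells in mice 1 and 2 and lower in mice 3 and 4, a split that 9.92% of all tested genes had, and the log2 fold changes in mice 1 and 2 alone were 0.23 and 0.28. In mice 3 and 4 alone they were -0.76 and -0.86, and without mouse 3 they were -0.052 and -0.0025. Mice 1 and 2 carry one animal ID prefix and mice 3 and 4 another.

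Of the brakes on mTORC1, *Ddit4* (REDD1) was at 2.53, 0.936, 2.16 and 1.16 normalized CPM in FCGR4+ libraries and at 2.08, 1.35, 4.39 and 2.51 in FCGR4- libraries, lower in FCGR4+ cells in 3 of 4 mice. The log2 fold change of -0.60 had an interval from -1.46 to 0.26 (edgeR adjusted P = 0.613), and it was -0.11 in mice 1 and 2 alone and -1.09 in mice 3 and 4 alone. *Sesn1*, a sestrin that signals amino acid shortage, was at 105.9, 74.5, 65.2 and 49.997 CPM in FCGR4+ and 115.4, 45.1, 54.1 and 58.5 CPM in FCGR4- libraries. Its log2 fold change of 0.16 (interval -0.28 to 0.60, edgeR adjusted P = 0.771) changed sign with the mice used, at -0.034 without mouse 2.

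Of the FoxO factors, *Foxo1* was at 15.5, 15.1, 5.27 and 8.36 normalized CPM in FCGR4+ libraries and at 13.8, 15.3, 12.5 and 11.7 in FCGR4- libraries. The FCGR4+ libraries of mice 3 and 4 stood below the other 6. The log2 fold change was -0.39 (interval -0.99 to 0.22, edgeR adjusted P = 0.636), and 0.075 in mice 1 and 2 alone. It was -0.89 in mice 3 and 4 alone and -0.12 without mouse 3. *Foxo3* was at 9.32, 7.49, 5.01 and 8.99 CPM in FCGR4+ and 10.7, 5.97, 6.84 and 4.95 CPM in FCGR4- libraries, with a log2 fold change of 0.13 (interval -0.48 to 0.74, edgeR adjusted P = 0.867) that was -0.11 without mouse 4. *Txnip*, a target of both FoxO factors and MondoA, was at 353.6, 201.0, 154.7 and 200.2 CPM in FCGR4+ and 435.7, 171.3, 220.9 and 257.0 CPM in FCGR4- libraries, and its log2 fold change was -0.24 (interval -0.61 to 0.14, edgeR adjusted P = 0.642). Of the exon bases of *Txnip*, 19.4% overlap the antisense gene *Gm15441* (0.104 to 0.892 CPM), and of those of *Foxo1*, 7.78% overlap the antisense gene *Gm20402* (0 counts in every library). Strand was not used in counting, and read pairs that fall on both genes of such a pair were not counted.

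**Figure D2:**
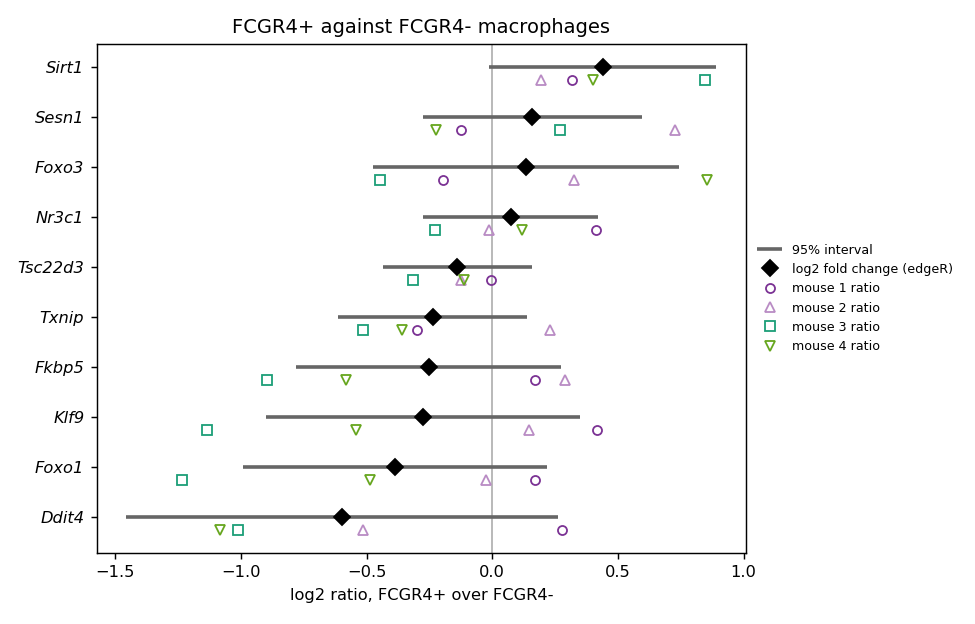
log2 ratio of FCGR4+ over FCGR4- macrophages for the 10 genes, with the edgeR estimate (diamond), its 95% interval (bar) and the ratio in each mouse (open symbols). Every interval spans 0, and the *Sirt1* interval, -0.01 to 0.89, does so by the least.

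The spread between mice was set beside the difference between populations. For 5 of the 10 genes, the SD of the log2 level over the 4 mice exceeded the mean absolute log2 ratio between populations, as it did for 33.0% of all tested genes. An SD and an absolute difference are different scales, so this does not say which source of variation was larger. The median SD between mice was 0.458 for the 10 genes and 0.352 for all tested genes, while the median absolute ratio was 0.447 and 0.434. *Fkbp5* stood out with an SD of 1.14, at the 95.3rd percentile, and *Sirt1* lay at the other end at 0.136, the 9.26th percentile.

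**Figure D3:**
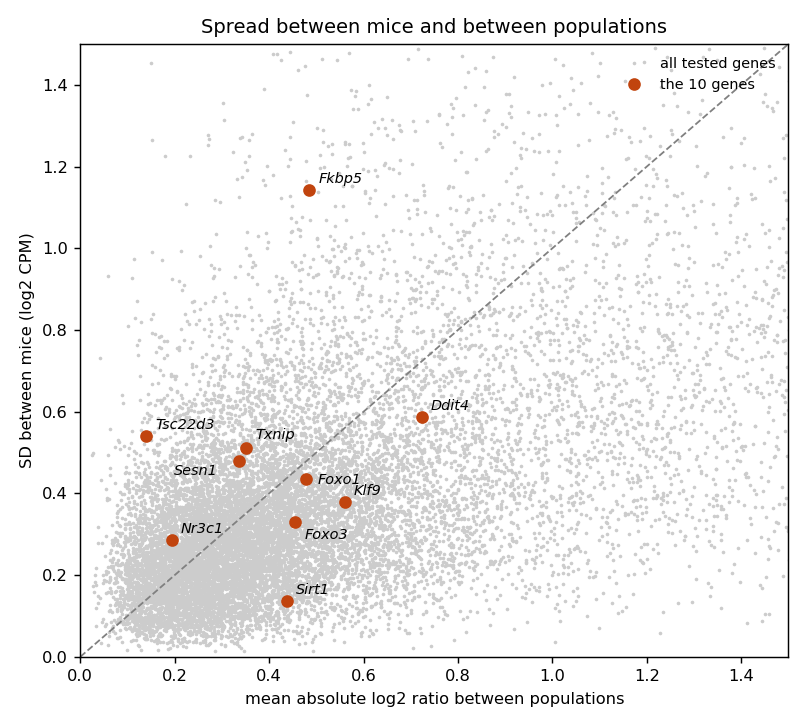
SD between mice of the log2 level (vertical) against the mean absolute log2 ratio between populations (horizontal), with all tested genes in gray, the 10 genes in color and a dashed line where both values are the same number. 1977 of the 17095 genes lie beyond the axis limit of 1.5, and *Fkbp5*, at an SD of 1.14, is the highest of the 10.

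Mouse 1 was often the highest. For 7 of the 10 genes (*Nr3c1*, *Fkbp5*, *Tsc22d3*, *Klf9*, *Sesn1*, *Foxo3* and *Txnip*), both libraries of mouse 1 were above the other 6, as they were for 9.88% of all tested genes. *Fkbp5* was at 130.5, 44.4, 13.5 and 27.5 normalized CPM in the FCGR4+ libraries of mice 1 to 4 and at 115.8, 36.3, 25.1 and 41.2 in the FCGR4- libraries. Its mouse 1 level was 4.59 times the mean of the other mice in FCGR4+ and 3.38 times in FCGR4- cells. *Tsc22d3* was at 606.0, 405.4, 258.7 and 261.2 CPM in FCGR4+ and at 608.7, 441.4, 321.6 and 282.7 CPM in FCGR4- libraries, so mouse 1 was highest and mouse 2 next in both populations. For *Tsc22d3* and *Foxo1*, the 4 libraries of mice 1 and 2 were all above those of mice 3 and 4, as they were for 7.92% of all tested genes. *Klf9* was at 41.5, 22.8, 13.4 and 19.4 CPM in FCGR4+ and at 31.1, 20.6, 29.4 and 28.2 CPM in FCGR4- libraries, with mouse 1 well apart only among FCGR4+ cells. *Sirt1*, *Foxo1* and *Ddit4* did not have mouse 1 above the rest.

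**Figure D4:**
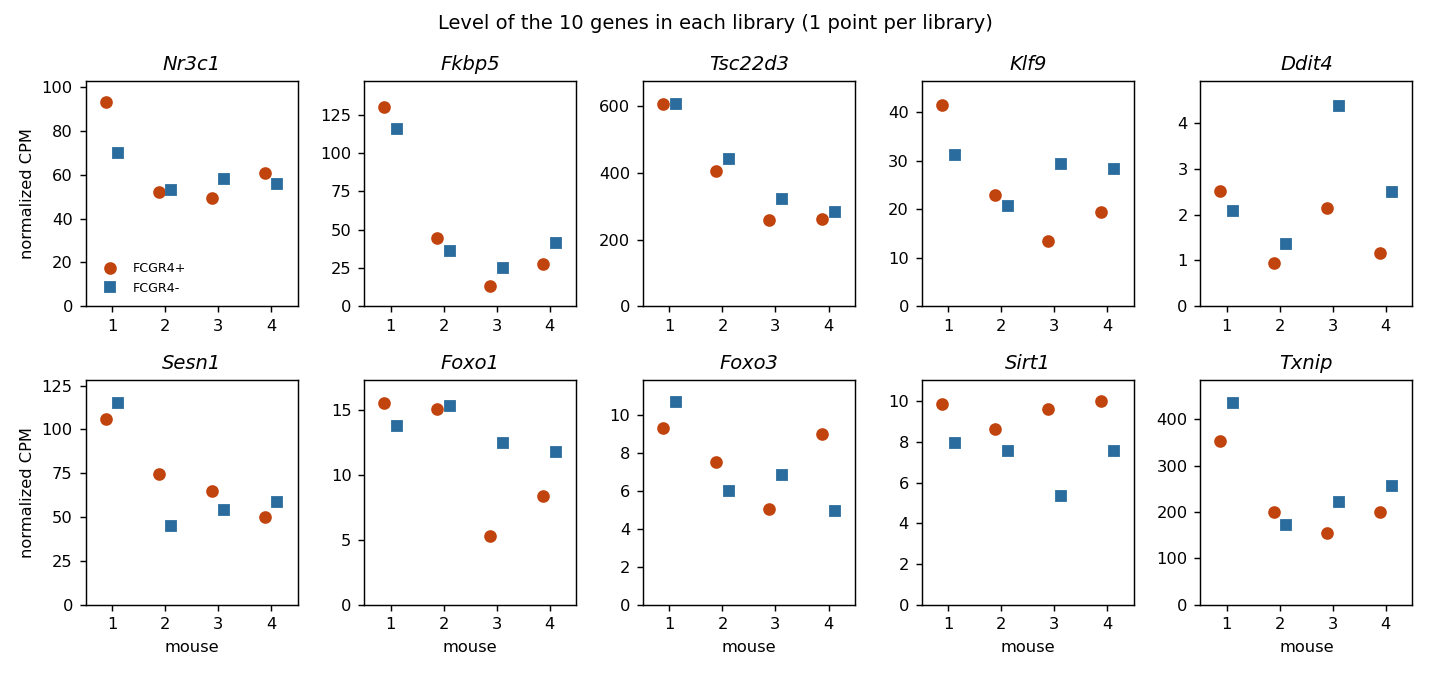
Normalized CPM of each of the 10 genes (vertical axes start at 0) by mouse, with a circle for the FCGR4+ and a square for the FCGR4- library. Both mouse 1 points stand above the other 6 for 7 genes, and for *Fkbp5* they lie at 130.5 and 115.8 against at most 44.4 elsewhere.

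A test of the mouse term in the same edgeR fit, added after these levels had been seen, passed for *Fkbp5* (adjusted P = 0.0273), *Tsc22d3* (adjusted P = 0.0474) and *Txnip* (adjusted P = 0.0927), 3 of the 10, where 5.55% of all tested genes passed. It says that the 2 libraries of a mouse lie together, and each mouse is 1 animal and 1 sort. *Sesn1* (edgeR adjusted P = 0.144) and *Nr3c1* (adjusted P = 0.260) did not pass. Without mouse 1, 0 of the 10 passed, where 1.77% of all genes did, and without mouse 4 the 1 that did was *Fkbp5* (edgeR adjusted P = 0.0446), beside 3.33% of all genes. Without mouse 2, *Fkbp5* and *Tsc22d3* passed (1.71% of all genes), and without mouse 3 *Fkbp5*, *Tsc22d3* and *Txnip* did (6.1% of all genes). The pattern of *Fkbp5* over the 8 libraries, also examined after its values were seen, was followed by *Otud1* (r = 0.984), *Clic4* (0.980) and *Rock2* (0.977). *Pdk4* was in place 8 of 10018 (0.964), *Txnip* in place 135 (0.895) and *Tsc22d3* in place 151 (0.890).

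Other measures of the mouse 1 libraries also stood apart. Their share of mitochondrial counts was 8.31% in FCGR4+ and 9.88% in FCGR4- cells, against 4.13% to 7.87% in the other 6 libraries. The 8 adipocyte markers summed to 5468 and 4448 CPM in mouse 1 and to 1435 to 3443 CPM in the others. Nearly all of this was *Lpl*, a lipase that macrophages also make, and the adipokine *Adipoq* was at 0.665 to 4.10 CPM. The macrophage marker *Adgre1* was highest in mouse 1, at 2384 and 2029 CPM against 682.7 to 1462 CPM, while the sum of macrophage markers was highest in mouse 2. The mast cell sum was highest in the FCGR4- library of mouse 1, at 2080 CPM. The part of these in the mouse 1 levels was not tested.

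The mouse term was also read in the lists of related genes. Of the 37 glucocorticoid-induced genes listed and tested, 12 passed the mouse term (32.4%, against 5.55% of all tested genes), or 10 of the 33 that are not among the 10 genes. Other lists also had shares above that of all genes, with 7 of 33 FoxO factors and targets (21.2%), 3 of 17 arrestin domain, thioredoxin and MondoA genes (17.6%), 3 of 20 genes of the amino acid response (15.0%) and 2 of 4 TSC22 domain genes (*Tsc22d3* and *Tsc22d1*). The other 6 lists lay at 0.0% to 5.26%. The 12 glucocorticoid-induced genes did not share 1 order of mice. *Zbtb16* (PLZF, a transcription factor; edgeR adjusted P = 0.0304), *Pdk4*, a kinase that spares glucose (adjusted P = 0.0217), and *Sult1a1* (adjusted P = 0.0509) were highest in mouse 1 in both populations, like *Fkbp5* and *Tsc22d3*. *Mertk*, a receptor for dying cells, and *Lpin1* were highest in mouse 2 in both populations, as was *Sgk1*, a kinase that responds to hormone and salt. *Il1r2*, a decoy receptor for interleukin 1, and *Lcn2*, an iron-binding defense protein, were highest in mouse 3 in both populations, and so were *Cd163* and *Cdkn1a*, an inhibitor of the cell cycle. The neutrophil and fibroblast marker sums were also highest in mouse 3 in each population (530.8 and 2319 CPM, and 284.7 and 1565 CPM), and their part in those levels was not tested. Without mouse 1, 5 of the 12 passed: *Il1r2*, *Lcn2*, *Cd163*, *Mertk* and *Lpin1*. In that fit 1.77% of all tested genes passed. Of the genes named above as passing, 2 of the 7 in the FoxO list and 1 of the 3 in the amino acid list still passed. In the arrestin domain and TSC22 domain lists, 0 did. In all, 8 of the 37 were highest in mouse 1 in both populations (21.6%), and 5 of the 33 that are not among the 10 genes (15.2%), beside 14.4% of all tested genes.

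**Figure D5:**
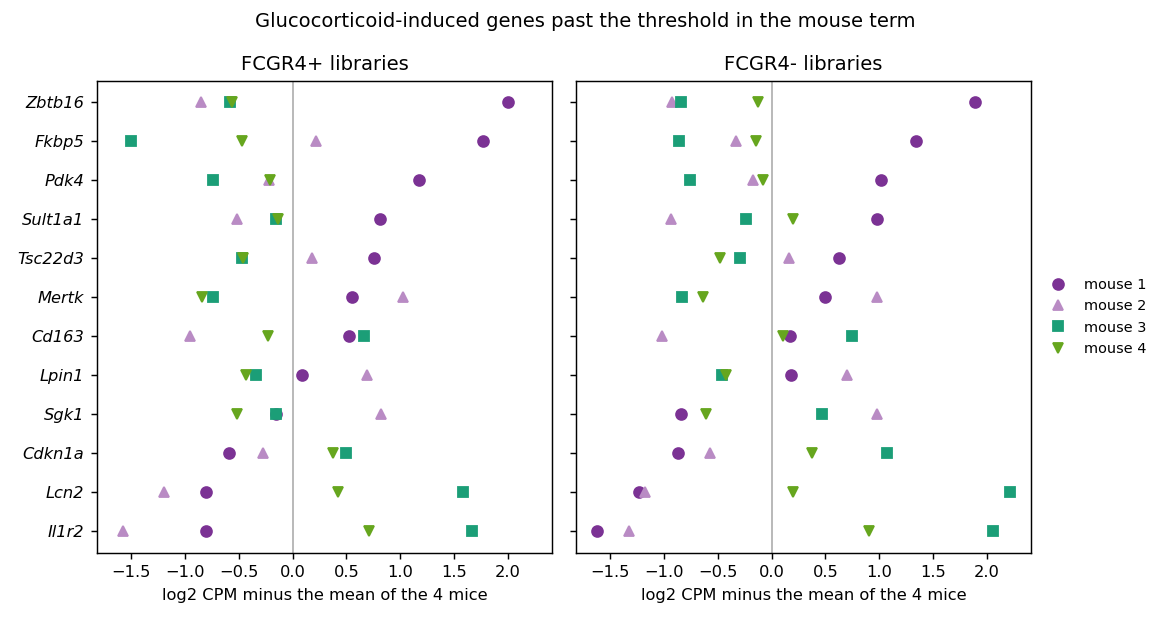
log2 CPM of each mouse minus the mean of the 4 mice of the same population, for the 12 glucocorticoid-induced genes past the threshold in the mouse term, with FCGR4+ libraries on the left and FCGR4- libraries on the right. *Zbtb16*, *Fkbp5*, *Pdk4*, *Sult1a1* and *Tsc22d3* are highest in mouse 1, *Mertk*, *Lpin1* and *Sgk1* in mouse 2, and *Il1r2*, *Lcn2*, *Cd163* and *Cdkn1a* in mouse 3.

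Between the populations, 11 lists of these pathways were read in the same fit. They hold 222 distinct tested genes, of which 7 passed (3.15%, against 1.27% of all tested genes), 7 of them lower and 0 higher in FCGR4+ cells. DESeq2 called 15 (6.76%, against 5.99% of all tested genes), 3 higher and 12 lower. With 1 mouse left out at a time, for the 6 genes named here, *Il1r2* and *Lcn2* passed in 4 of 4 fits, *Slc7a11* in 1 (without mouse 1), and *Cd163*, *Phgdh* and *Slc7a5* in 0, and with no replicate block 0 of the 7 passed. The 7 log2 fold changes stayed below 0 in every fit run. In the glucocorticoid-induced list, 3 of 37 passed as lower and 0 as higher with edgeR, and DESeq2 called 7 in either direction. *Il1r2* fell by 2.50 on the log2 scale, from 114 ± 121 normalized CPM in FCGR4- to 17.1 ± 15.6 in FCGR4+ libraries (SD, n = 4 mice; edgeR adjusted P = 0.00823). *Lcn2* fell by 1.99 (edgeR adjusted P = 0.0157) and *Cd163*, a hemoglobin scavenger receptor of tissue macrophages, by 0.96 (adjusted P = 0.0602). Mast cell, neutrophil and fibroblast marker sums were higher in FCGR4- libraries as well, and their part in these differences was not tested. In 4 of 4 mice, *Rgs2*, *Mertk* and *Glul* had the higher level in FCGR4+ cells, by 0.41, 0.43 and 0.45 on the log2 scale, and did not pass (edgeR adjusted P = 0.306, 0.291 and 0.490), while *Rgs2* and *Mertk* passed with DESeq2 (adjusted P = 0.0318 and 0.0462).

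Of the receptor's chaperones, cofactors and hormone enzymes, 0 of 20 passed. *Hsd11b1*, the enzyme that regenerates active glucocorticoid inside cells, averaged 3.00 ± 1.01 normalized CPM over the FCGR4+ and 10.9 ± 9.53 over the FCGR4- libraries (SD, n = 4 mice). Its log2 fold change of -1.61 did not pass with edgeR (adjusted P = 0.118) and did with DESeq2 (adjusted P = 2.62e-04), and its FCGR4- level was 25.1 CPM in mouse 3 and 4.98 to 7.45 CPM in the others. The fibroblast and mesothelial marker sums were highest in that same library, at 1565 and 36.2 CPM, and their part in this level was not tested. Of 33 FoxO factors and targets, 1 passed as lower and 0 as higher. Of those that did not, *Gadd45a*, a stress gene of DNA repair and growth arrest, and *Ccnd2*, a cyclin, differed by -0.78 and -0.49 on the log2 scale (edgeR adjusted P = 0.411 and 0.346).

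Among 44 genes of mTORC1 and its inputs, *Slc7a5*, which imports leucine and other large amino acids, was the 1 that passed, with a log2 fold change of -1.02 (edgeR adjusted P = 0.0949). *Mtor* itself averaged 9.57 ± 2.57 normalized CPM over the FCGR4+ and 13.1 ± 1.35 over the FCGR4- libraries (SD, n = 4 mice) and was lower in 4 of 4 mice, by -0.49 on the log2 scale (edgeR adjusted P = 0.499). Of 20 genes of the amino acid and integrated stress response, *Slc7a11*, the cystine importer, and *Phgdh*, the first enzyme of serine synthesis, passed, where *Slc7a11* fell by 2.23 (edgeR adjusted P = 0.0772) and *Phgdh* fell by 2.16 on the log2 scale (edgeR adjusted P = 0.0716). The *Phgdh* level was 1.55 ± 0.709 CPM in FCGR4+ and 6.62 ± 1.92 CPM in FCGR4- libraries. *Slc7a11* was at 3.84, 8.82, 18.5 and 5.67 CPM in FCGR4+ libraries of mice 1 to 4. In FCGR4- libraries it was at 6.73, 70.8, 163.2 and 20.1 CPM. Mast cell, neutrophil and fibroblast marker sums were also higher in FCGR4- libraries. Their part in the differences of *Slc7a5*, *Slc7a11* and *Phgdh* was not tested. The AMPK (12 genes tested), arrestin domain and MondoA (17), Krüppel-like factor (13), TSC22 domain (4) and immediate early (19) lists had 0 genes past the threshold in either direction with edgeR. DESeq2 called 1 gene in each of the AMPK, arrestin domain and MondoA, and immediate early lists. The immediate early genes, which also respond to tissue digestion, summed to between 6443 and 11187 CPM per library.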

How the data were processed

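Bulk RNA-Seq of 8 libraries was used. Per the file headers, the authors mapped reads with STAR to mm10 and made the deposited counts per gene with featureCounts 1.6.3 on GENCODE vM18; a read pair with several mapping positions counted at all of them, and strand was ignored. The values are raw counts, beside the authors' gene length, which was used for levels per kilobase. 0 per-sample columns were left out. Populations and mice came from the sample labels. Libraries of a mouse share the animal, and their deviations from the population means correlated (r = 0.291 to 0.428).

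Tested were the genes that reached 10 counts in 4 or more libraries, with edgeR 4.0.16 (R 4.3.3): TMM factors (0.937 to 1.11), mouse as a block, glmQLFit and glmQLFTest, Benjamini-Hochberg adjustment over 17095 genes, threshold 0.1. Ratios within a mouse and likeness used log2 CPM with a prior count of 2. Intervals are 95%. Alternatives were no replicate block, DESeq2 1.42.0, edgeR's newer quasi-likelihood method, other scaling, filters and threshold, leaving out each mouse, and each ID prefix alone. The test of the mouse term and the likeness to *Fkbp5* were added after seeing the data. On simulated counts with 200 changed genes, the fit called 112, 8 of them unchanged, none in the wrong direction. No 2 libraries of the same population were duplicates. The members and gene lists were chosen with earlier results of these data known. Named were the members, *Fcgr4*, and of each list the genes past the threshold and the largest differences shared by 4 of 4 mice with at least 5 CPM; genes past the mouse term were named after their values were seen. Motifs were searched in RefSeq promoter windows of GRCm38.p6. The *Nr3c1* promoter was not analysed here, and 1 gene of the lists is not reported here.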

Additional observations from a re-analysis of the deposited data

Results flagged for a closer look

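The level of *Sirt1* in the FCGR4- library of mouse 3 was 2.42 on the log2 CPM scale, below the 2.91 to 2.99 of the other 3 FCGR4- libraries. Its distance to the nearest of them was 0.871 of the whole range of the 4 libraries, beyond the limit for groups of 4. Of 30 groups examined in this way, 1 had such a library, where 1.5 are expected by chance. The FCGR4+ library of the same mouse, at 9.63 normalized CPM, lay within the range of its group, 8.61 to 10.004.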

How the results depend on the processing

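None of the 10 genes passed the threshold under any alternative run. With no replicate block, 48 genes of all tested passed instead of 217, and with DESeq2 1024, with edgeR's newer quasi-likelihood method 632, with no filter on low counts 1054, with a threshold of 0.05 76, and with mice 1 and 2 alone or mice 3 and 4 alone 113 each; leaving out 1 mouse at a time gave 84 to 163. The gene lists held 7 genes past the threshold, 0 with no replicate block, 15 with DESeq2, 13 with no filter, 1 in mice 1 and 2 alone, 2 in mice 3 and 4 alone, 2 at a threshold of 0.05, and 2 to 4 with a mouse left out. Omitting the block changed no call among the 10 genes. The mouse term called 3 of the 10, and 0 to 3 with a mouse left out. The sign of *Nr3c1* turned, to -0.016 with library size alone and -0.076 in mice 3 and 4 alone, and it ranged from -0.041 to 0.16 with a mouse left out. *Sesn1* was at -7.6e-04 in mice 3 and 4 alone and ranged from -0.034 to 0.29 with a mouse left out, *Foxo3* from -0.11 to 0.31. In mice 1 and 2 alone, *Foxo1* was at 0.075, *Klf9* at 0.28 and *Fkbp5* at 0.23. *Sirt1*, *Tsc22d3*, *Txnip* and *Ddit4* kept their sign in these runs. The median of all genes moved to -0.09 with library size alone and to -0.16 with no filter. The cause of these changes was not tested. For the 10 genes, the 95% intervals from 4 mice all spanned 0.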
